A study of Mus musculus with 8 samples.

Results

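The cytosolic ribosomal protein genes of mouse islets were examined in bulk RNA-seq of βIgf1rKD and βIgf1r mice. They were chosen by symbol and annotation and not by expression. A gene was taken when its symbol was Rpl or Rps followed by a number and at most a letter, an l and 1 digit, or was Rpsa, Rplp0, Rplp1 or Rplp2, and when GENCODE M21 on GRCm38 gave it as protein coding, and the Rps6k kinases and the symbols with -ps were left out. This gave 84 genes of the 53012 in the count table, 32 named for the small and 52 for the large subunit, on 19 chromosomes and with 4 on the X chromosome (Rpl10, Rpl36a, Rpl39 and Rps4x). Of the 84 genes, 81 passed the filter on low counts and were tested. The 3 others were the paralogs Rpl10l, Rpl39l and Rpl3l. The study compared islets of 4 βIgf1rKD and 4 βIgf1r mice, all aged 17 months and homozygous for Igf1r alleles with a floxed exon 3, with 1 library for the islets of each mouse. The βIgf1rKD mice (M145, M146, M149 and M150) carried 1 copy of Ins1-CreERT2, a Cre recombinase that tamoxifen switches on in β-cells and that the methods describe as driven by a rat insulin promoter, and received tamoxifen at 0.075 mg/g intraperitoneally on 5 consecutive days. The βIgf1r mice (M148, M151, M152 and M153) had no Cre and received corn oil, so that Igf1r loss, Cre and tamoxifen cannot be told apart in these groups. Both groups were sampled 7 days after the injections ended, and both held males and females that are not marked per mouse.

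The cytosolic ribosome has a small subunit, which binds the mRNA and decodes it, and a large subunit, which joins the amino acids and carries the stalk that recruits translation factors. Its proteins are made in roughly equal numbers, assembled with ribosomal RNA in the nucleolus, and degraded when they find no partner. Most mRNAs of ribosomal proteins begin with a C and a run of pyrimidines at their 5′ end, the terminal oligopyrimidine or TOP motif, through which mTORC1, an effector of insulin and IGF1 receptors, controls their translation more than their abundance. Cells that secrete much protein, β-cells and the acinar cells around the islets among them, hold many ribosomes.

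The libraries held between 21633925 and 42391106 estimated counts, and 15474 genes passed the filter of edgeR. Levels are given as CPM, the count of a gene brought to a library of fixed size by library total and TMM factor. The TMM factors lay between 0.803 and 1.23, so that library totals and TMM scaling differed. Transcripts of Ins1 and Ins2 took 8.77% to 19.6% of a library, and none of the 11 β-cell markers was at 0. The share of 12 acinar digestive enzyme genes ran from 1.84% to 13.7% among βIgf1r and from 3.91% to 15.5% among βIgf1rKD libraries, with the highest in M149. The targeted gene Igf1r was at 46.8, 48.0, 60.9 and 58.7 CPM in M148, M151, M152 and M153 and at 46.9, 50.2, 57.9 and 47.8 CPM in M145, M146, M149 and M150. Its log2 fold change was -0.08 (standard error 0.11), and a count of the whole gene does not separate exon 3. Endothelial markers summed to 460 to 572 CPM in βIgf1r and 407 to 450.5 CPM in βIgf1rKD mice. Of these markers 11 of 11 tested had a log2 fold change below 0, and 6 of them an unadjusted p under 0.05 by edgeR. Among all genes tested 1.89% were lower in βIgf1rKD islets at such a p. Above 0 were 11 of 12 acinar, 4 of 11 β-cell, 2 of 10 other endocrine, 6 of 7 duct, 7 of 11 leukocyte and 5 of 10 mesenchymal markers. Among all genes tested 52.3% were. With library totals 0 of 10 other endocrine, 4 of 7 duct and 5 of 11 leukocyte markers were above 0. So were 4 of 10 mesenchymal and 2 of 11 β-cell markers, and 2315 of all 15474 genes. Without M149 1 of 10 mesenchymal, 3 of 10 other endocrine and 5 of 7 duct markers were above 0. So were 6 of 11 leukocyte and 5 of 11 β-cell markers, and 7997 of all 15474 genes. The acinar markers had a median log2 fold change of 0.82 and 0 at an unadjusted p under 0.05 by edgeR. With library totals and without M149, 11 of 12 acinar markers again lay above 0. Of the β-cell markers 1, Ins1, was at an unadjusted p under 0.05, with a log2 fold change of -0.92 (edgeR, unadjusted p = 0.0204). The part of any of these cells in the results was not tested. Bulk RNA cannot tell fewer cells of a type from less RNA per cell. M149 stood apart in the ribosomal protein genes, and their log2 fold changes are given with it unless a value without it is named.

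The annotated 5′ ends of the genes were read first, because the TOP motif is what ties this family to growth signalling. RefSeq windows on GRCm38.p6, from 250 bases before to 50 bases after an annotated start, were matched by symbol for 64 of the 84 genes and gave 76 windows. A pyrimidine run, taken as a C followed by at least 4 bases that are each C or T on the gene's strand and beginning within 10 bases of the start, was found in 41 of them, 53.9%, against 30.7% of all 32851 windows. In the stretches below, each with 40 bases before and 20 bases from the start onwards, capitals mark that run. The first 5 show the runs of the gene with the smallest p (Rpl14), of the gene with the highest fold change (Rpl35), of the kinase target Rps6, of Rps24, which was high per length, and of Rpl28. The next 2, of Rps3a1 and Rpl10, hold no such run at the annotated start. Rps24 has another annotated start, not shown, that holds no such run either.
Rpl14 (chr9:120571477-120571536, plus strand): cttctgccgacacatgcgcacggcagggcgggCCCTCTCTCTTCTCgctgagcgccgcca
Rpl35 (chr2:39005112-39005171, minus strand): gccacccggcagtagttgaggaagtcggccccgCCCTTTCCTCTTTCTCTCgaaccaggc
Rps6 (chr4:86857348-86857407, minus strand): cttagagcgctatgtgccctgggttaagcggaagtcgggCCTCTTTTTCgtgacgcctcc
Rps24 (chr14:24490638-24490697, plus strand): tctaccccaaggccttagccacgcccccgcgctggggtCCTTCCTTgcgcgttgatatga
Rpl28 (chr7:4792925-4792984, plus strand): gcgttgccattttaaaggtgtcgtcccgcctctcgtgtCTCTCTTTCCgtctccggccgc
Rps3a1 (chr3:86142649-86142708, minus strand): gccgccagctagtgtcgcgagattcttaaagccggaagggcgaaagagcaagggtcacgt
Rpl10 (chrX:74270776-74270835, plus strand): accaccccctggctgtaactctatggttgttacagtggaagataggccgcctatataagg

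The runs differed in length and in where they began. That of Rpl35 was 18 bases long and began 7 bases before the annotated start, that of Rpl14 was 14 bases long and began 8 bases before it, and that of Rps6 was 10 bases long and began 1 base before it. An annotated start can lie some bases from the start that cells use, and a window without a run says only that the letters were not found there. Over the whole windows and on both strands, CCGGAAG, the core that ETS factors bind, stood in 35.5% of the ribosomal protein windows and 8.86% of all windows. GGGCGG, the GC box, stood in 60.5% against 35.7%, AAGATGG, part of a YY1 site, in 15.8% against 6.34%, and CACGTG, the E-box of Myc, in 10.5% against 7.15%. TATAAA, the TATA box, stood in 9.21% against 13.6% of all windows. Among the tested genes, the 36 with a run in any of their windows had a median log2 fold change of 0.16 and the 25 without one a median of 0.15, and the 20 with no RefSeq window had 0.17.

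The genes were among the abundant transcripts of the islets, with a mean over the 8 mice from 8.88 to 734 CPM, a median of 179.5 CPM and 63 of 81 above 100 CPM. Levels between genes were compared per length, as CPM per kilobase of the annotated principal transcript, with the SD over the 8 mice. The highest was Rpl41, a very short basic peptide of the large subunit, at 723 ± 95.0 CPM per kilobase (SD, n = 8). Rps24, a small subunit protein needed to mature its RNA, followed at 555 ± 65.2 and Rplp1, an acidic protein of the stalk, at 547 ± 81.8 CPM per kilobase (SD, n = 8 each), 2 values that lay closer together than the spread of either. Rps3a1 at 491 ± 39.3 and Rps29, a zinc-binding protein of the small subunit, at 480.2 ± 51.1 CPM per kilobase (SD, n = 8 each) did not differ beyond their spread either. This order is that of the counts left on the genes themselves. With the counts of near copies added, an alternative chosen after the data were seen, Rpl10 came first at 826 ± 144.7 CPM per kilobase, where it was at 331 ± 69.4 without them, and Rpl41 second at 723 ± 95.0 (SD, n = 8 each), values within a single SD of Rpl10 of each other.

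The lowest levels per length among the tested genes belonged to Rps20 (31.2 ± 6.92 CPM per kilobase), Rps15a (23.4 ± 4.13), Rpl7l1 (16.0 ± 1.43), Rpl12 (7.15 ± 2.45) and Rpl5 (4.802 ± 1.43; SD, n = 8 each). The annotated transcripts of Rps20, Rps15a, Rpl7l1, Rpl5 and Rpl12 are 3706, 5130, 2606, 2045 and 1242 bases long. The median is 767.5 bases, and a longer transcript lowers the value per length. For Rpl12 and Rpl5 most counts stood on a processed copy elsewhere in the genome, as described with the copies. With the copies added, Rpl12 was at 199 ± 50.2 and Rpl5 at 207 ± 37.5 CPM per kilobase (SD, n = 8 each). Rpl10l had 0 counts in all 8 mice, which allows up to 3 counts in a mouse, or 0.0739 to 0.142 CPM. Rpl39l had between 0 and 1 and Rpl3l, the form of striated muscle, between 0 and 2 counts.

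The first question was whether these genes differed between islets of βIgf1rKD and βIgf1r mice. With library totals alone, 25 of the 81 tested genes had a log2 fold change above 0, and so did 2315 of all 15474 genes. With TMM scaling 80 of the 81 did, against 52.3% of all genes tested. The median log2 fold change was 0.16, with quartiles of 0.11 and 0.23, and that of all genes was 0.01. The values ran from -0.04 for Rps27 to 0.42 for Rpl35, and the standard errors from 0.08 to 0.27 with a median of 0.15, so that 34 genes differed by less than their own standard error. At an unadjusted p under 0.05 by the quasi-likelihood test of edgeR was 1 of the 81 genes, Rpl14, where 4.12% of all genes did (2.23% higher and 1.89% lower in βIgf1rKD islets), and 0 had an adjusted p under 0.05 after Benjamini-Hochberg adjustment over all genes, as did 0% of all genes. DESeq2 gave 3 of 81 at an unadjusted p under 0.05, against 4.53% of all genes, and limma-voom 2, against 3.65%, and both gave 0 of the 81 at an adjusted p under 0.05. The mice of the groups overlapped for every one of the 81 genes, while they did not overlap for 2.22% of all genes.

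**Figure D1:**
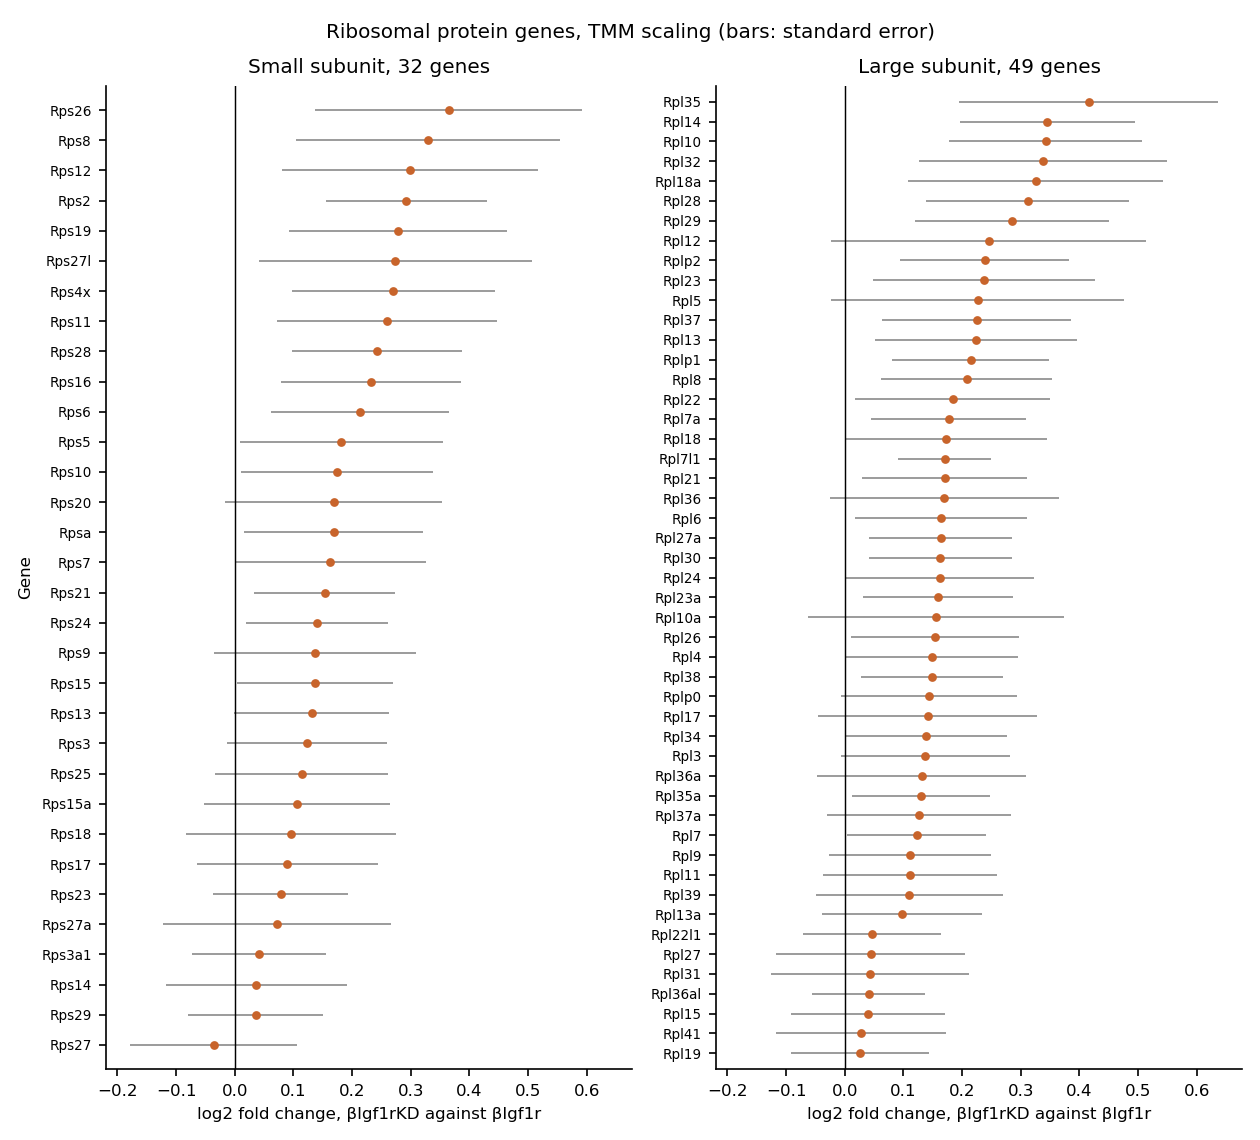
The log2 fold change of βIgf1rKD against βIgf1r islets is plotted for each of the 81 tested ribosomal protein genes, the 32 of the small subunit on the left and the 49 of the large subunit on the right, with bars for the standard error. With TMM scaling 80 points lie right of 0 and Rps27 lies left of it at -0.04. With library totals 56 would lie left of 0, as would 13159 of all 15474 genes.

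The subunits were then taken separately. Of the small subunit genes 31 of 32 had a log2 fold change above 0, with a median of 0.16, and of the large subunit genes 49 of 49, with a median of 0.16. With library totals the numbers were 11 of 32 and 14 of 49. The medians were then -0.04 and -0.04, where the median of all genes was -0.19. With TMM scaling the 4 genes on the X chromosome had a median of 0.20 and the 77 on autosomes a median of 0.16.

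In the small subunit, Rps2, which lines the channel where mRNA enters, was at 338, 339, 429 and 363 CPM in M148, M151, M152 and M153 and at 462, 404, 541 and 392 CPM in M145, M146, M149 and M150. The lowest βIgf1rKD mouse lay below the highest βIgf1r mouse. The log2 fold change was 0.29 (standard error 0.14) and the unadjusted p 0.0609 by edgeR's quasi-likelihood test and 0.0235 by DESeq2, and without M149 the log2 fold change was 0.19.

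Rps6, the protein that S6 kinases phosphorylate when mTORC1 is active, was at 238, 238, 298 and 288 CPM in M148, M151, M152 and M153 and at 302, 261, 395 and 272 CPM in M145, M146, M149 and M150. M145 lay just above the βIgf1r mice and M149 far above them, and the log2 fold change was 0.21 (standard error 0.15) and without M149 0.069. Rps19, the gene most often mutated in Diamond-Blackfan anaemia, was at 103, 114, 141 and 132 CPM in the βIgf1r mice and at 135, 116, 211 and 131 CPM in M145, M146, M149 and M150, a log2 fold change of 0.28 (standard error 0.19). Here M149 lay far above the βIgf1r mice and the other βIgf1rKD mice lay within their range, and without M149 the log2 fold change was 0.060.

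Rpsa, a small subunit protein related to a laminin receptor, was at 503 ± 64.7 CPM in βIgf1r and 566 ± 94.5 CPM in βIgf1rKD islets (SD, n = 4 each), a log2 fold change of 0.17 (standard error 0.15), and 0.052 without M149. Rps3, which also has a DNA repair activity, was at 290.4 ± 41.8 and 316 ± 39.4 CPM (SD, n = 4 each), a log2 fold change of 0.12 (standard error 0.14), and 0.031 without M149. Rps4x, an X-linked gene, was at 326 ± 17.3 and 393 ± 98.8 CPM (SD, n = 4 each), where M145 and M149 at 447 and 498 CPM lay above the βIgf1r mice and M146 at 277 CPM lay below them.

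Rps27a encodes a ribosomal protein fused to ubiquitin. It was at 202, 228, 171 and 248 CPM in M148, M151, M152 and M153 and at 235, 149.8, 291 and 218 CPM in M145, M146, M149 and M150, a log2 fold change of 0.07 (standard error 0.19), and -0.081 without M149. Rps27, a zinc finger protein of the small subunit, was the 1 gene with a negative value under TMM scaling. It was at 128, 155, 122 and 167 CPM in the βIgf1r mice and at 123, 122, 171 and 143 CPM in M145, M146, M149 and M150, a log2 fold change of -0.04 (standard error 0.14), and -0.15 without M149, and 98.7% of its 31-base words occur in other genes too. Rps24 (log2 fold change 0.14, standard error 0.12), Rps20 (0.17, 0.18), Rps15a (0.11, 0.16), Rps3a1 (0.04, 0.11) and Rps29 (0.04, 0.12) also overlapped between the groups, and without M149 their log2 fold changes were 0.064, -0.043, -0.052, -0.019 and -0.051.

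In the large subunit, Rpl14 had the smallest p. It was at 134, 132, 147 and 157 CPM in M148, M151, M152 and M153 and at 185, 149.4, 236 and 153.4 CPM in M145, M146, M149 and M150. The highest mice were M145 and M149, above all of the βIgf1r group, and M146 and M150 lay within the range of that group. The log2 fold change was 0.35 (standard error 0.15), with an unadjusted p of 0.0435 and an adjusted p of 0.987 by edgeR's quasi-likelihood test, and without M149 the log2 fold change was 0.19 with an unadjusted p of 0.126. The unadjusted p of edgeR was also above 0.05 when M145, M148, M151 or M152 was left out.

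Rpl35, next to the exit of the tunnel through which new chains leave, had the highest log2 fold change, 0.42 (standard error 0.22). It was at 58.8, 67.7, 67.5 and 78.4 CPM in the βIgf1r mice and at 101, 52.9, 124 and 84.9 CPM in M145, M146, M149 and M150, so that 3 βIgf1rKD mice lay above and M146 below every βIgf1r mouse. Rpl28 showed the same arrangement of mice, with 67.8, 67.8, 77.0 and 75.8 CPM in the βIgf1r mice and 87.2, 65.2, 125 and 80.8 CPM in M145, M146, M149 and M150, a log2 fold change of 0.31 (standard error 0.17). Without M149 the log2 fold change was 0.23 for Rpl35 and 0.11 for Rpl28.

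Rpl10, an X-linked gene whose protein is among the last to join the large subunit, was at 211, 206, 289 and 227 CPM in M148, M151, M152 and M153 and at 327, 288, 347 and 221 CPM in M145, M146, M149 and M150. M152 reached the level of M146, and M150 lay among the βIgf1r mice. The log2 fold change was 0.34 (standard error 0.16) with an unadjusted p of 0.0648 by edgeR's quasi-likelihood test and 0.0336 by DESeq2, and without M149 the log2 fold change was 0.26. Its near copy Rpl10-ps3, which the annotation lists as protein coding, held more counts than the gene itself, and with the copy added the log2 fold change was 0.27 (standard error 0.15).

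Rpl5 and Rpl11 bind the smallest ribosomal RNA together and, when assembly fails, bind Mdm2 and stabilise p53. Rpl11 was at 192 ± 30.4 CPM in βIgf1r and 207 ± 34.3 CPM in βIgf1rKD islets (SD, n = 4 each), a log2 fold change of 0.11 (standard error 0.15). Rpl5 had between 172 and 417 counts and a log2 fold change of 0.23 (standard error 0.25). Rpl41 was at 389.8 ± 69.4 and 397 ± 37.2 CPM (SD, n = 4 each), a log2 fold change of 0.03 (standard error 0.14). Rpl12, at the base of the stalk, had 162 to 363 counts and a log2 fold change of 0.25 (standard error 0.27). Without M149 these 4 lay below 0, with -0.014 for Rpl11, -0.040 for Rpl5, -0.023 for Rpl41 and -0.096 for Rpl12.

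The stalk itself is built from Rplp0, Rplp1 and Rplp2. Rplp0, often used as a reference gene in qPCR, was at 391, 419, 518 and 492 CPM in M148, M151, M152 and M153 and at 515, 424, 611 and 459.9 CPM in M145, M146, M149 and M150, a log2 fold change of 0.14 (standard error 0.15). M149 lay above every βIgf1r mouse and the other 3 βIgf1rKD mice lay within their range. Rplp1 showed a log2 fold change of 0.22 (standard error 0.13) and Rplp2 of 0.24 (standard error 0.14), and M149 was highest in both. Without it the log2 fold change was 0.036 for Rplp0, 0.11 for Rplp1 and 0.12 for Rplp2.

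The spread between mice was mostly shared by the whole family. M149 had the highest CPM of the 8 mice for 76 of the 81 genes and lay above the gene's own mean for 81 of 81, by 0.45 on the log2 scale on average. M148 was lowest for 43 genes, M146 for 25 and M151 for 13. Averaged over the 81 genes, log2 CPM was 7.01, 7.14, 7.30 and 7.30 in M148, M151, M152 and M153 and 7.31, 7.11, 7.72 and 7.23 in M145, M146, M149 and M150. Without M149 the βIgf1rKD mice thus spanned 7.11 to 7.31 and the βIgf1r mice 7.01 to 7.30. The mean was 7.19 ± 0.14 in βIgf1r and 7.34 ± 0.26 in βIgf1rKD mice (SD, n = 4 each), with no test because it is a score over the chosen genes.

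**Figure D2:**
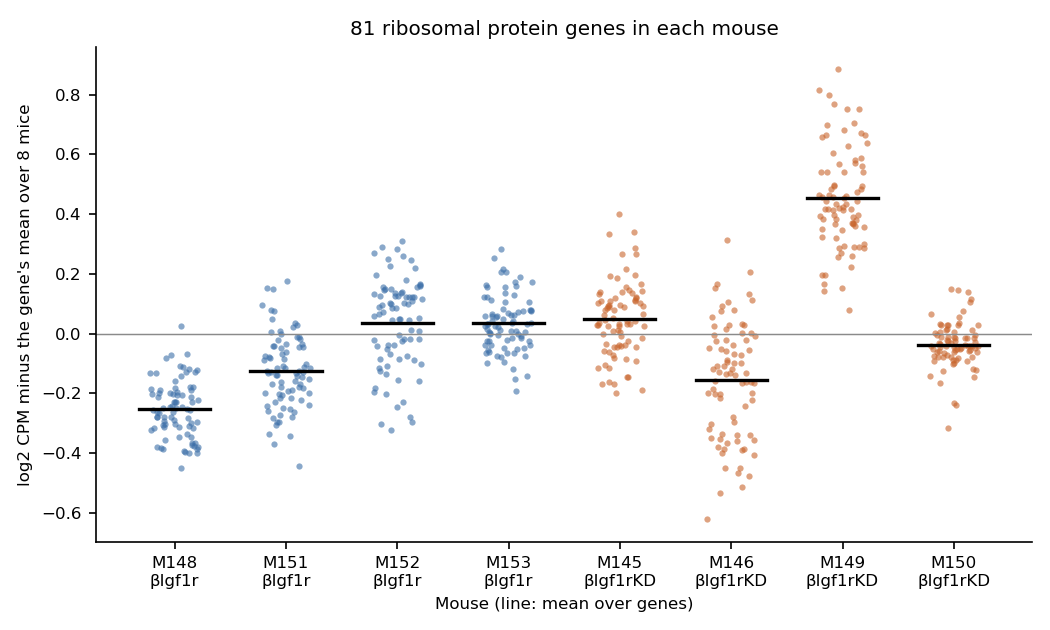
Each point is a ribosomal protein gene in a mouse, plotted as its log2 CPM minus the mean of that gene over the 8 mice, with βIgf1r mice in blue and βIgf1rKD mice in orange and a line at the mean over the 81 genes. All 81 points of M149 lie above 0 with a mean of 0.45, and M148 has the lowest mean, -0.25.

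As a share of all counts, without any scaling, the order was another. The 84 genes made up 1.62%, 1.77%, 1.49% and 1.56% of the counts in M148, M151, M152 and M153 and 1.32%, 1.71%, 1.76% and 1.46% in M145, M146, M149 and M150. The means were 1.61% ± 0.118 and 1.56% ± 0.208 (SD, n = 4 each) and the groups overlapped. The acinar list took 1.84%, 3.11%, 13.7% and 7.82% of the counts in the βIgf1r mice and 12.9%, 3.91%, 15.5% and 10.3% in M145, M146, M149 and M150. The 3 mice with the lowest acinar share, M148, M151 and M146, were also the 3 with the lowest mean log2 CPM of the ribosomal protein genes and had the highest TMM factors, 1.23, 1.22 and 1.18. With the acinar and hormone marker genes left out of the denominator, the share was 2.26% ± 0.106 in βIgf1r and 2.16% ± 0.327 in βIgf1rKD mice (SD, n = 4 each), with M145 lowest at 1.77% and M149 highest at 2.47%.

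The median therefore depended on how the libraries were scaled. With library totals and no TMM factors it was -0.04, but the median of all genes was then -0.19, and the distance between the medians was 0.15 as with TMM factors. Scaled to the sum of the ribosomal protein genes themselves, the median of all genes was -0.14, with 41 of the 81 above 0. In these 3 scalings 80, 78 and 79 of the 81 genes lay above the median of all genes. With the acinar score of each mouse as a covariate, the median was 0.04, 54 of the 81 genes lay above 0, and 48 lay above the median of all genes.

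Leaving out M149 had a similar effect. Without it the median was 0.02, with 48 of 81 genes above 0, 0 at an unadjusted p under 0.05 and 46 above the median of all genes. Of all genes 3.75% were then at such a p. Without M148 the median was 0.10 with 74 genes above 0 and 0 at an unadjusted p under 0.05, where 2.44% of all genes were. Without M146 it was 0.23 with 11 genes at an unadjusted p under 0.05, where 6.14% of all genes were, and without M152 it was 0.22 with 6 such genes, where 7.07% of all genes were. The number of such genes was 0 without M145 or M151, 2 without M153 and 3 without M150. Of all genes 2.97%, 4.76%, 2.56% and 5.34% were at such a p without M145, M151, M153 and M150. With Xist expression as a covariate, used because the sexes are not marked, the median was 0.25, all 81 genes lay above 0 and for 29 the unadjusted p of edgeR was under 0.05, where 1143 of all 15474 genes, 7.39%, were. In none of these settings did a ribosomal protein gene have an adjusted p under 0.05. The part of the acinar share and of M149 in the difference between the groups was not tested beyond these values.

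**Figure D3:**
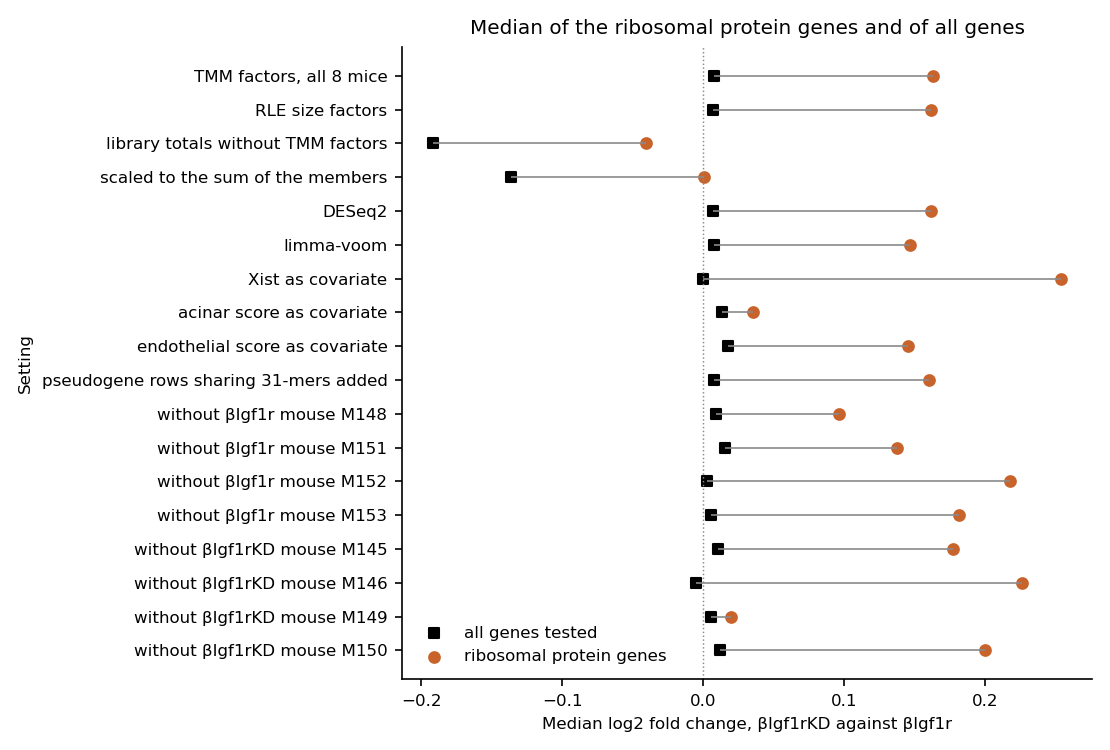
The median log2 fold change of βIgf1rKD against βIgf1r islets is shown for the ribosomal protein genes (orange circles) and for all genes tested (black squares) under each setting. With library totals the medians are -0.04 and -0.19, and without M149 they are 0.02 and 0.01.

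How closely the genes moved together within a mouse was then measured. The SD of log2 CPM about the group mean had a median of 0.23 over the 81 genes, above the 0.14 of 1639 other genes in the same range of levels and the 0.20 of all genes tested. After the mouse's own mean over the 81 genes had been subtracted, the median SD was 0.12, and it was smaller than before for 78 genes, or 96.3%. For the other genes at the same level the same subtraction raised the median SD to 0.28, and the SD was smaller for 6.47% of them. Each gene is a part of the mean that was subtracted from it, 1 of 81 parts.

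Rpl26 stayed closest to the family, with an SD of 0.0389 after the subtraction, followed by Rps6 at 0.0531, Rpl7a at 0.0568, Rplp0 at 0.0637 and Rpsa at 0.0652. These genes are named here because of these values. At the other end Rpl7l1 (0.0978 before and 0.229 after), Rpl36al (0.131 and 0.169) and Rpl37a (0.248 and 0.274) had a larger SD after the subtraction than before. Rpl7l1 and Rpl36al are paralogs of other ribosomal protein genes. Rpl5 and Rpl12, with few counts, had the highest SD before it, 0.42 and 0.43.

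**Figure D4:**
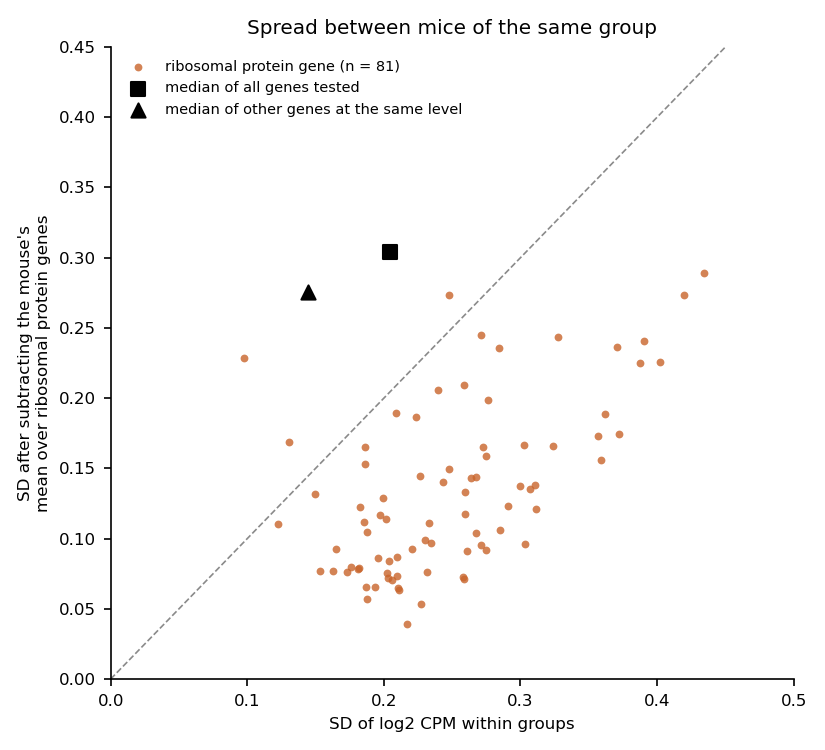
For each of the 81 ribosomal protein genes the SD of log2 CPM within groups is plotted against the SD after subtracting the mouse's mean over these genes, with medians of all genes tested (square) and of other genes at the same level (triangle) and a dashed line of equality. Of the 81 points 78 lie below the line, while both medians of other genes, 0.30 and 0.28 after the subtraction, lie above it.

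Several ribosomal proteins have a paralog that can take their place in the ribosome, and the ratio of paralog to parent within a mouse does not depend on scaling. Of 8 pairs 4 could be tested. The log2 ratio of Rpl22l1 to Rpl22 was -0.36, -0.69, -0.60 and -0.30 in M148, M151, M152 and M153 and -0.53, -0.55, -0.85 and -0.47 in M145, M146, M149 and M150, a difference of -0.11 (exact two-sided permutation test, p = 0.4). That of Rps27l, a p53 target, to Rps27 was -2.32 ± 0.31 in βIgf1r and -2.04 ± 0.31 in βIgf1rKD mice (SD, n = 4 each), a difference of 0.28 (exact two-sided permutation test, p = 0.257). The ratio of Rpl36al to Rpl36a differed by -0.06 (exact two-sided permutation test, p = 0.8) and that of Rpl7l1 to Rpl7 by 0.05 (exact two-sided permutation test, p = 0.714). After adjustment for 4 pairs every p was 0.8, where the smallest p of this design is 0.0286.

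The paralogs differed in how abundant they were next to their parents. Rpl36al, an autosomal gene, was above its X-linked parent Rpl36a in all 8 mice, at 236 ± 19.8 against 115 ± 24.0 CPM per kilobase (SD, n = 8 each). Rpl7l1 was at 39.3 ± 3.06 CPM in βIgf1r and 44.2 ± 2.61 CPM in βIgf1rKD islets (SD, n = 4 each), and per length at 16.0 against 280.3 CPM per kilobase for Rpl7. Their annotated transcripts are 2606 and 1163 bases long, and their means over the 8 mice were 41.7 and 326 CPM. The log2 fold change of Rpl7l1, 0.17 (standard error 0.08), had an unadjusted p of 0.0573 by edgeR's quasi-likelihood test, and M146 and not M149 was its highest mouse. Rpl3l, Rpl10l and Rpl39l, at 0 to 2 counts, gave no ratio to Rpl3 (log2 fold change 0.14, standard error 0.14), Rpl10 and Rpl39 (0.11, 0.16). Rps4l had 570 to 1428 counts but is a transcribed processed pseudogene in the annotation and was not used.

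Many ribosomal protein mRNAs have been copied back into the genome as intronless processed pseudogenes, so that reads can fit a gene and its copies equally well. Of the 31-base words of a gene's transcripts a median of 58.1% also occurred in other genes, and 54 of 84 genes shared more than 50%. Of 398 copies, by biotype or a -ps symbol, that shared at least 25% of a gene's words, 292 had a mean count under 1, and 25 had a mean of 50 or more. All 398 copies held 12.2% of the counts of genes and copies together. For 6 of the 25 the copy held more counts than the gene, namely Gm15500 for Rpl5, Rpl10-ps3 for Rpl10, Gm10275 for Rpl12, Gm7536 for Rpl27a, Rps23-ps1 for Rps23 and Rpl10a-ps1 for Rpl10a.

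Gm15500, on the minus strand of GRCm38 at chr7:114705217-114706235, is a transcribed processed pseudogene that holds 49.0% of the words of Rpl5. It had a mean count of 11446 against 273 for Rpl5, and 97.2% to 98.2% of the sum in every mouse. Gm10275, on the minus strand at chr10:29698746-29699380, had 6571 against 245 for Rpl12, or 95.8% to 97.1% of the sum. How the estimated counts were split between gene and copy by the authors' counting was not tested here. With the copies added, the log2 fold change was 0.14 (standard error 0.17) for Rpl5 and 0.24 (standard error 0.21) for Rpl12. Over the 81 genes the median was then 0.16 with 80 above 0 and 0 at an unadjusted p under 0.05, where 4.11% of all genes were.

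**Figure D5:**
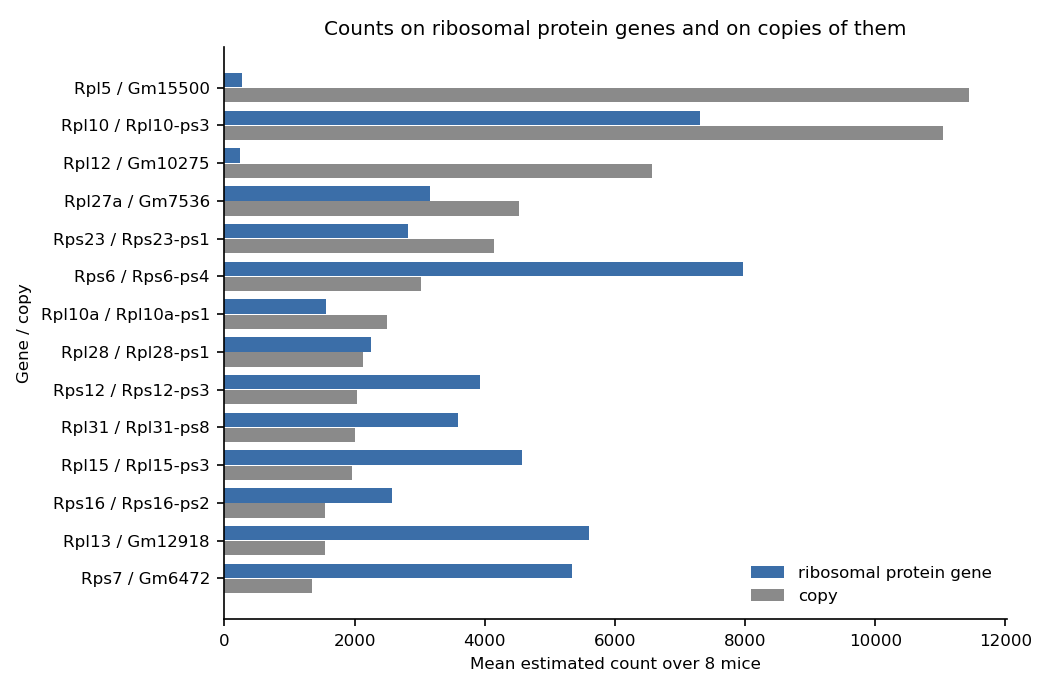
Bars give the mean estimated count over the 8 mice of a ribosomal protein gene (blue) and of a copy that shares its sequence (grey), for the 14 copies with the highest mean. For Rpl5 and Rpl12 the gene has 273 and 245 counts and the copy 11446 and 6571.

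The other genes of the pathway were taken from lists, each tested in the same edgeR fit and given with its number at an unadjusted p under 0.05. Of all genes tested, 4.12% were at such a p and 52.3% lay above 0. With library totals 2315 of all 15474 genes lay above 0, and without M149 7997 did. Fau and Rack1, ribosomal proteins with other names, had log2 fold changes of 0.06 and 0.17 and neither was at such a p, and both lay below 0 with library totals and without M149. Rack1, a scaffold on the small subunit, was at 245, 276, 321 and 312 CPM in M148, M151, M152 and M153 and at 315, 250.5, 434 and 294 CPM in M145, M146, M149 and M150, again with M149 highest.

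TOP mRNAs of proteins outside the ribosome, among them translation factors, chaperones and the nucleolar protein Npm1, made up the next list. All 19 had a log2 fold change above 0 with a median of 0.15 and 0 at an unadjusted p under 0.05. With library totals 3 of 19 lay above 0, beside 2315 of all 15474 genes. Without M149 12 of 19 did with a median of 0.03. Eef1a1, the elongation factor that brings aminoacyl-tRNA, had the highest CPM of the list with 2909 ± 215 CPM in βIgf1r and 3097 ± 560.3 CPM in βIgf1rKD islets (SD, n = 4 each), a log2 fold change of 0.09 (standard error 0.19). Eef2, the translocase, showed a log2 fold change of 0.20 (standard error 0.19). Of 8 noncoding host genes of snoRNAs, which begin with a TOP motif too, 7 lay above 0 with a median of 0.24 and 0 at such a p, whereas with library totals 4 of 8 lay above 0, and without M149 1 of 8 lay above 0 and the median was -0.06. Gas5 showed a log2 fold change of 0.09 (standard error 0.15) and Snhg1 of 0.27 (standard error 0.22).

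Factors that assemble the ribosome form a further list. With library totals 8 of 36 ribosome biogenesis factors lay above 0, as did 2315 of all 15474 genes. With TMM scaling 33 of the 36 had a log2 fold change above 0 with a median of 0.10, and without M149 32 of 36 with a median of 0.09. At an unadjusted p under 0.05 was 1 of them, Nob1, the nuclease that makes the final cut in the RNA of the small subunit. It was at 16.2, 14.9, 16.5 and 16.6 CPM in M148, M151, M152 and M153 and at 17.7, 20.6, 18.4 and 17.5 CPM in M145, M146, M149 and M150, and the groups did not overlap, as for 2.22% of all genes. The log2 fold change was 0.21 (standard error 0.09; edgeR, unadjusted p = 0.0371). Ncl and Rrp1, with the highest CPM, had log2 fold changes of 0.04 (standard error 0.11) and 0.00 (standard error 0.11).

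For RNA polymerase I, which makes the large ribosomal RNA, 15 of 18 subunits and factors lay above 0 with a median of 0.10. Without M149 13 of 18 lay above 0 with a median of 0.09. With library totals 5 of 18 lay above 0, as did 2315 of all 15474 genes, and 1 was at an unadjusted p under 0.05. With TMM scaling 2 of the 18 were at such a p by edgeR, where 4.12% of all genes were. Polr1e, a subunit of the enzyme, was at 4.47, 4.47, 4.88 and 4.98 CPM in the βIgf1r mice and at 5.71, 5.82, 6.09 and 5.13 CPM in M145, M146, M149 and M150, a log2 fold change of 0.27 (standard error 0.12) without overlap. Myc, a transcription factor that drives ribosome synthesis, was at 3.14, 3.78, 3.60 and 3.98 CPM in the βIgf1r mice and at 11.1, 2.93, 10.8 and 4.39 CPM in M145, M146, M149 and M150. M145 and M149 were high and M146 was the lowest of all 8 mice, and the log2 fold change was 1.003 (standard error 0.39; edgeR, unadjusted p = 0.0294). Ubtf and Polr1d, with the highest CPM, had log2 fold changes of 0.06 (standard error 0.14) and 0.09 (standard error 0.13).

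Growth signalling genes were divided, with 15 of 26 above and 11 below 0 and a median of 0.04, which was 0.02 without M149. With library totals 4 of 26 lay above 0, as did 2315 of all 15474 genes. With TMM scaling 1 of the 26 was at an unadjusted p under 0.05. That gene was Eif4ebp2, a repressor of cap-dependent translation that mTORC1 inactivates, at 99.7 ± 6.04 CPM in βIgf1r and 112 ± 4.68 CPM in βIgf1rKD islets (SD, n = 4 each), a log2 fold change of 0.17 (standard error 0.07). The ranges met, since M152 was at 109 and M150 at 107 CPM. Eif4g1 and Akt1, with the highest CPM of the list, had log2 fold changes of 0.07 (standard error 0.11) and 0.23 (standard error 0.12). The proteins of the mitochondrial ribosome, a separate family, lay above 0 for 55 of 78 genes with a median of 0.06, for 47 with a median of 0.02 without M149, and for 11 with library totals. At an unadjusted p under 0.05 were 2 of them, Mrpl24 (log2 fold change 0.25, standard error 0.09) and Mrps18b (0.28, 0.11), and those with the highest CPM, Mrps33 and Mrpl10, had -0.18 (standard error 0.09) and -0.03 (standard error 0.06). Adjusted over all genes by the Benjamini-Hochberg method, 0 genes of these lists had an edgeR p under 0.05, and without M149 none of the lists held a gene at an unadjusted p under 0.05.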

How the data were processed

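RNA-seq of islets from 8 mice was used, 4 in each group, as the sample labels give them. The mouse numbers are not shared between groups, so no mice were paired. The deposited values are estimated counts per gene, 1 column a mouse, which the authors did not scale between mice, from stranded mRNA libraries. The submitters' processing notes name fastp, kallisto and GRCm38, and the version of each tool and the annotation release are not given in the sources used here. Of the values 13.4% were not whole, and all were rounded. Symbols, biotypes and transcripts came from GENCODE M21, matched by identifier for 51906 of 53012 genes, and promoter windows from RefSeq. The genes and lists were chosen with earlier results of these data known, so no p is given for a list as a whole. A gene of these lists is not reported here.

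The filter of edgeR 4.0.16 (a minimum count of 10, scaled to library size, in at least 4 mice and a total of at least 15), TMM factors and the quasi-likelihood test with Benjamini-Hochberg adjustment over 15474 genes were run in R 4.3.3. CPM used TMM factors, and a prior count of 2 was added for log2 CPM. The study's methods state no RNA-seq test, so counts at an unadjusted and an adjusted p under 0.05 are given. The standard error is the size of the log2 fold change over the root of F. Ratios of paralogs were compared by an exact permutation test over 70 assignments of the mice. The genes given with values were the 5 highest and 5 lowest per length, the 6 with the smallest p in each direction, genes chosen for their role, 8 paralog pairs, genes that were not tested, and in other lists those at an unadjusted p under 0.05 and the 2 with the highest CPM, and genes named for other values are marked as such. Copies were assigned to the gene with which they share most 31-base words. Alternatives were RLE size factors, library totals, scaling to the ribosomal protein genes, DESeq2 1.42.0, limma-voom (limma 3.58.1), other filters, covariates (Xist, an acinar and an endothelial score), copies added to their genes (by symbol, and by shared words after the data were seen) and each mouse left out. No sex was assigned to a mouse. No library was a copy of another, with a chi-square per degree of freedom of at least 72.9 within groups.

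On simulated counts with these means, library sizes and dispersions, the test called 127 of 196 genes changed by a fold of 2 (5 false calls), 176 of 194 changed by a fold of 4 (11 false calls) and 0 of 15253 with no gene changed. Each gene was drawn independently, and changes as small as the family's median log2 fold change of 0.16 were not simulated. The simulation gives no rate for them. Python 3.11.15 and matplotlib 3.10.9 made the plots.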

Additional observations from a re-analysis of the deposited data

Results flagged for a closer look

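In 5 of the 78 sets of 4 mice that were looked at, a mouse lay far from the other 3 by Dixon's test, where chance gives about 1 in 20 sets, or 3.9 sets. In 4 of them the mouse was M149 of the βIgf1rKD group. Log2 CPM of Rpl11 was 8.01 in M149 against 7.55 to 7.59 in the other βIgf1rKD mice, that of Rps3 was 8.55 against 8.20 to 8.23, that of Rpl3 was 9.01 against 8.51 to 8.58, and that of Rpl22 was 6.64 against 5.93 to 6.05. In the βIgf1r group Rps3a1 was at 8.71 in M148 against 8.93 to 8.95 in the other mice. M149 had the highest acinar share of the 8 mice, 15.5%, and M148 the lowest, 1.84%, and the part of this share in the values was not tested.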

How the results depend on the processing

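No ribosomal protein gene had an adjusted p under 0.05 in any of the 20 alternatives run, and the median log2 fold change lay between -0.04 and 0.25. No paired analysis was possible because no number in the labels occurs in both groups. The number of genes at an unadjusted p under 0.05, which was 1 with edgeR, was 3 with DESeq2, 2 with limma-voom, 29 with Xist as a covariate, and 0 with library totals, scaling to the ribosomal protein genes, the acinar or the endothelial score as a covariate, or either addition of copies, and 0 to 11 with a mouse left out. Among all genes tested the share at such a p ran from 2.44% without M148 to 7.39% with Xist as a covariate. The number above 0 was 25 with library totals, 41 with scaling to the ribosomal protein genes and 48 to 81 with a mouse left out, lowest without M149. Of all 15474 genes, 2315 lay above 0 with library totals and 3104 with scaling to the ribosomal protein genes.

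Among the 33 genes given with values, signs changed in these settings. With library totals the log2 fold changes were -0.18 for Rps27a, -0.16 for Rps29 and Rps3a1, -0.15 for Rpl22l1, -0.14 for Rpl36al and Rpl41, -0.13 for Rps15a and Rpl39, -0.10 for Rpl36a, -0.086 for Rpl7, -0.077 for Rpl11, -0.069 for Rps20, -0.066 for Rps3, -0.060 for Rps24, -0.059 for Rpl3 and Rplp0, -0.035 for Rpsa, -0.023 for Rpl22, -0.022 for Rpl5 and -0.012 for Rpl7l1. With scaling to the ribosomal protein genes they were -0.12 for Rps29, -0.11 for Rps27a, Rps3a1 and Rpl22l1, -0.10 for Rpl41 and Rpl36al, -0.072 for Rps15a, -0.071 for Rpl39, -0.049 for Rpl36a, -0.041 for Rpl11, -0.035 for Rpl7, -0.024 for Rps3, -0.023 for Rpl3, -0.019 for Rps20, -0.013 for Rplp0 and -0.011 for Rps24. With the acinar score they were -0.073 for Rps29, -0.068 for Rpl22l1, -0.061 for Rpl41 and Rps27a, -0.043 for Rps15a, -0.038 for Rpl36a, -0.030 for Rps3a1, -0.029 for Rpl39, -0.020 for Rpl11, -0.019 for Rpl36al and Rps27l, -0.011 for Rps20, -0.010 for Rpl5 and -0.0051 for Rplp0. With the endothelial score they were -0.098 for Rps3a1, -0.056 for Rps3, -0.043 for Rpl36a, -0.013 for Rps24 and -0.0062 for Rps29, and with Xist 0.015 for Rps27. The TMM factors left out with library totals had a mean of 1.08 in βIgf1r and 0.943 in βIgf1rKD mice. The median of all genes without them was -0.19. Scaling to the ribosomal protein genes centres the family on 0 by construction. With a mouse left out the ranges of those that changed sign were Rpl41 -0.064 to 0.11, Rps3a1 -0.019 to 0.081, Rps29 -0.051 to 0.093, Rps20 -0.043 to 0.30, Rps15a -0.052 to 0.22, Rpl12 -0.10 to 0.38, Rpl5 -0.040 to 0.42, Rps27 -0.15 to 0.044, Rpl11 -0.014 to 0.19, Rps27a -0.081 to 0.22, Rpl22 -0.012 to 0.27, Rpl22l1 -0.042 to 0.11, Rpl36a -0.058 to 0.25, Rpl36al -0.024 to 0.10, Rpl39 -0.044 to 0.23. The ratio of Rpl7l1 to Rpl7 ranged from -0.044 to 0.13 and that of Rpl36al to Rpl36a from -0.19 to 0.065. The cause of the other changes of sign was not tested.

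Rpl5 and Rpl12 had the fewest counts of the tested genes, 172 to 417 and 162 to 363 in a mouse. Whether depth limited the results for these or the other genes was not tested. With 4 mice a group and a median standard error of 0.15, differences of the size seen here were not separable from the spread between mice.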

Other observations

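The split of counts between ribosomal protein genes and their copies set M152 of the βIgf1r group and M146 of the βIgf1rKD group apart from the other 6 mice, a pattern that was noticed after the values were seen. Gm8430, a processed pseudogene of Rps27a on chromosome 6, had 1887 counts in M152 and 1790 in M146, but 0, 0 and 32 in M148, M151 and M153 and 29, 16 and 154 in M145, M149 and M150. The same 2 mice had the lowest Rps27a of their groups, 4804 and 4195 counts. With Gm8430 and the other copies added, the standard error of the log2 fold change of Rps27a was 0.12, where it was 0.19 without them, and the log2 fold change was 0.07 in both. Gm9794, a copy of Rpl23, was at 233 and 172 counts in M152 and M146 and at 0 to 101 in the other mice.

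Other copies moved the other way. Gm10163, a copy of Rpl21, had 36 and 32 counts in M152 and M146 against 109 to 599 in the others, and Rpl10-ps3 took 55.4% and 53.3% of the counts of Rpl10 and its copy in M152 and M146 against 58.3% to 63.9% in the others. Over the 24 copies with a mean count of 50 or more and counts of their own, M152 and M146 had the 2 highest shares of the counts for 8 copies and the 2 lowest for 5, so 13 in all. Among the other 27 of the 28 pairs of mice no pair did so for more than 4 copies. The labels give nothing that these 2 mice share, and why they stand together was not tested.

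The identical counts of Gm11518 and Rpl27-ps3, copies of Rpl27 that each had 989, 833, 1070 and 721 counts in M148, M151, M152 and M153, were counted as 2 genes in the table.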
